A study of Mus musculus with 11 samples.

Results

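Transcripts of respiratory complexes II, III, IV and V were followed in the aorta of old mice with and without dietary nitrate. The set holds every array probe whose gene name begins with Uqcr, Atp5 or Cox4 to Cox8, or is Sdha, Sdhb, Sdhc, Sdhd or Cyc1, which gave 49 of the 36413 gene names on the array, with 72 of its 55681 probes. 46 of the 49 are subunits or tissue isoforms of subunits, of which 4 belong to complex II, 9 to complex III, 18 to complex IV and 15 to complex V. The other 3 names match the rule by spelling and are no subunits of these complexes. They are Atp5s, a coupling factor of ATP synthase, Atp5sl, which takes part in complex I assembly, and Cox4nb, a protein of the endoplasmic reticulum membrane complex.

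The respiratory chain lies in the inner mitochondrial membrane. Complex II passes electrons from succinate to ubiquinone, complex III from ubiquinol to cytochrome c, and complex IV from cytochrome c to oxygen. Complexes III and IV pump protons, and complex V, the ATP synthase, uses the returning protons to make ATP. Several complex IV subunits have a form found in most tissues and another found mainly in heart, skeletal muscle and, for some, brown fat. Smooth muscle of the vessel wall has fewer mitochondria than heart muscle or brown fat, and brown fat is found around the thoracic aorta. In RNA of a whole tissue, fewer cells of a type and less RNA per cell cannot be told apart.

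All mice were male C57BL/6 mice of 20 months on standard chow. 5 arrays came from old nitrate treated mice, which drank 1 g/L NaNO3 for 8 weeks, and 6 from old controls. The labels name the agent of the controls as control and mark those arrays as a reanalysis of earlier samples. The methods of the study name sodium chloride for them. Whether the groups shared their housing and time of dissection is not given in the labels. The descending aorta was flushed, freed of surrounding fat and used whole, with 1 mouse on each array. Another nitrate array was not analysed here.

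On these one-color arrays a brighter spot stands for more of a transcript, and values below are quantile normalized log2 signals. The 75th percentile of the raw signal lay between 213 and 289 on the 11 arrays, and no array lost more than 186 of its 59305 spots to flags. The arrays lay on 3 slides, each with both groups. Slide 1 held nitrate treated mice 1 and 2 with controls 1 and 2, slide 2 held nitrate treated mouse 3 with controls 4 and 6, and slide 3 held nitrate treated mice 4 and 5 with controls 3 and 5. All controls lay in the third column of a slide and no nitrate array did, so column and treatment cannot be told apart. Smooth muscle markers were all detected, 10 of 10, and so were 15 of 15 adipocyte and 14 of 15 brown adipocyte markers, although fat had been removed. Of the heart muscle markers 11 of 17 were detected.

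Before the values, the sequences of the ATP synthase c subunit genes are shown, because these 3 genes code for the same mature protein and their differences were unlike in sign. The first 30 bases of each 60 base probe are given in lower case, with the mm9 position of the probe named in the files. Between any 2 of these probes the longest stretch in common was 5 or 6 bases.
Atp5g1, chr11:95934315-95934374, minus strand: tgccagtcctggtgctggagtctactgagc
Atp5g2, chr15:102493299-102493358, minus strand: ctggggaaagtgcttggctcagggtttgac
Atp5g3, chr2:73746519-73746578, minus strand: ccgaagactgtagtactggtgtcatggaaa

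The 250 bases before the start of these genes and of Cox6a1 are given from RefSeq on GRCm38.p6. Capitals mark matches on either strand to the palindrome of nuclear respiratory factor NRF-1, which is the run of capitals in the Atp5g2 window, to the letters CCGGAAG of ETS factors such as GABP, and TCAAGGTCA of estrogen-related receptors, factors known for driving respiratory genes.
Atp5g1, chr11:96075632-96075881, minus strand: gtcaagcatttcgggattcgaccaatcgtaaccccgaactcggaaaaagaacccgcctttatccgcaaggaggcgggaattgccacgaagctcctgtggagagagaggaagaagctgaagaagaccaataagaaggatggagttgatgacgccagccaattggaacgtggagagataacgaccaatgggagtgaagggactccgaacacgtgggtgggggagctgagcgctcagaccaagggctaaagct
Atp5g2, chr15:102671048-102671297, minus strand: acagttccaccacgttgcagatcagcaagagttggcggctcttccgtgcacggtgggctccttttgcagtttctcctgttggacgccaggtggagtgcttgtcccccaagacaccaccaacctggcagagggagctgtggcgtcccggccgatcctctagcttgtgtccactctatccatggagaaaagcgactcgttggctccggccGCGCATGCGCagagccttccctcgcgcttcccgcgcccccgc
Atp5g3, chr2:73911327-73911576, minus strand: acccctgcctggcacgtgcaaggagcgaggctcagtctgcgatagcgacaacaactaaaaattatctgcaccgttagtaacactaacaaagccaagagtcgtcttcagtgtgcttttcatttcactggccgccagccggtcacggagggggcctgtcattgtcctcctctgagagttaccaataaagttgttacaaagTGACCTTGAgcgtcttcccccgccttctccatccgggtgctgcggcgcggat
Cox6a1, chr5:115348959-115349208, minus strand: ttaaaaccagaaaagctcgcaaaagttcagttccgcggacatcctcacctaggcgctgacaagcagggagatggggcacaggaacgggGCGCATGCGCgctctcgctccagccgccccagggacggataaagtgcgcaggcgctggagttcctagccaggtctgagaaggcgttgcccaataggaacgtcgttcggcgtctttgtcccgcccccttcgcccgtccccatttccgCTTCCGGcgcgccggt

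In the Atp5g1 window the letters CCAAT occurred 5 times on either strand and none of the other motifs was found. RefSeq held a window for 37 of the 49 names. NRF-1 letters stood in 3 of the 37 (8.11%), against 0.877% of 27025 genes, and ETS letters in 9 (24.3%), against 7.83%. The receptor letters stood in 1 (2.70%), against 0.422%, and CCAAT in 21 (56.8%), against 37.5%. These are counts of letters, and no binding was measured.

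Across the complexes, 8 of 44 detected subunit transcripts were called lower in old nitrate treated mice and none was called higher. 41 of the 44 differences lay below 0, but none passed adjustment over all probes, and within 1 of the 3 slides most lay above 0. A transcript was called where limma gave an unadjusted P value under 0.05 and the fold change exceeded 1.2. 47 of the 49 genes were detected, and 9 of them were called lower, against 4.85% of the 23630 detected probes. 0 were called higher, against 4.16%. After Benjamini-Hochberg adjustment in limma over all detected probes none of the 47 was below 0.05, the smallest adjusted P value being 0.226. The same adjustment left 3 of all detected probes (0.0127%). 11 of the genes were lower at an unadjusted P value under 0.05 alone, a share of 6.65% over all probes, and 1 was higher, against 7.71%. In 0 of the 47 did all nitrate treated mice lie above all controls, against 1.61%.

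The genes called lower were Sdha and Sdhb of complex II, Cyc1 of complex III, Cox6a1, Cox6b1 and Cox7a2 of complex IV, Atp5d and Atp5o of complex V, and Atp5s. 43 of the 47 differences lay below 0, against 46.2% of all detected probes. Their median was -0.20 on the log2 scale, and that over all detected probes was 0.01.

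The number of calls changed with single arrays. Without nitrate treated mouse 1, 2 or 3, 4 genes were called lower, against 4.01, 3.51 and 4.31% of all detected probes in these fits. Without control 3 there were also 4, against 4.09%, and without control 1 there were 3, against 3.54%. Without nitrate treated mouse 5 there were 20, against 5.45%. Atp5d, Atp5o and Atp5s kept their call whichever of the 11 arrays was left out, and the other 6 lost it without at least 1 of them.

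**Figure D1:**
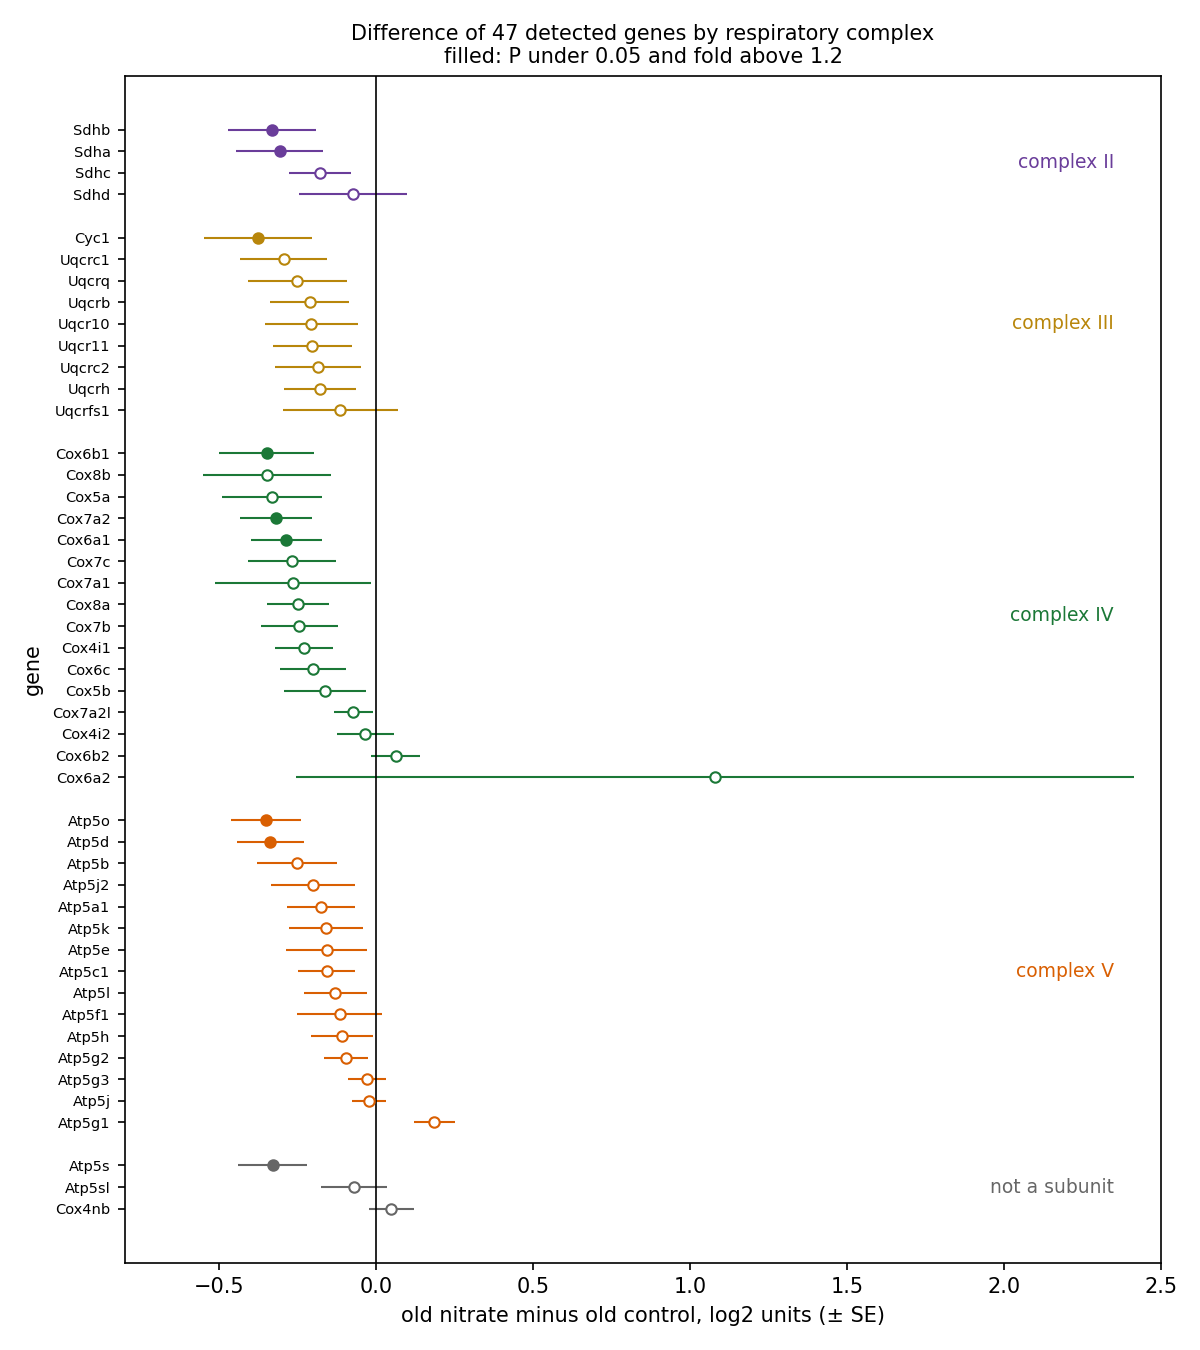
Difference between old nitrate and old control arrays for each of the 47 detected genes, in log2 units with its standard error, by complex. Filled points are the 9 genes called lower, and Atp5g1 at 0.18 and Cox6a2 at 1.08 lie to the right of the other subunits.

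Nitrate treated mice 1, 2 and 3 lay low and control 1 lay high. Each of the 44 detected subunits was set relative to its median over the controls, so control values lie around 0 by construction. The median over subunits was then -0.34, -0.39 and -0.22 in nitrate treated mice 1, 2 and 3, but 0.00 in mouse 4 and 0.07 in mouse 5. Among controls it was 0.42 in control 1 and lay between -0.08 and 0.03 in the other 5. Nitrate treated mice 4 and 5 thus lay among the controls, and control 1 lay above every other array.

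Control 1 was the highest of the 11 arrays in 38 of 44 subunits. Nitrate treated mouse 1 or 2 was the lowest in 39. Of the 44 subunits, 36 were below every control in nitrate treated mouse 1, 36 in mouse 2, 29 in mouse 3, 5 in mouse 4 and 1 in mouse 5.

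Within slides the differences went in opposite directions. On slide 1 the median difference of the 47 genes was -0.58 and 43 of 44 subunits were lower in nitrate treated mice. On slide 2 it was -0.17, with 41 of 44 lower. On slide 3 it was 0.09, and 11 of 44 were lower. The median over all detected probes stayed between 0.01 and 0.04 on the 3 slides. With slide as a block in the limma fit, 10 genes were called lower, against 5.39% of all detected probes. Cyc1 was not among them, although its difference was -0.40 there, against -0.38 without the block.

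**Figure D2:**
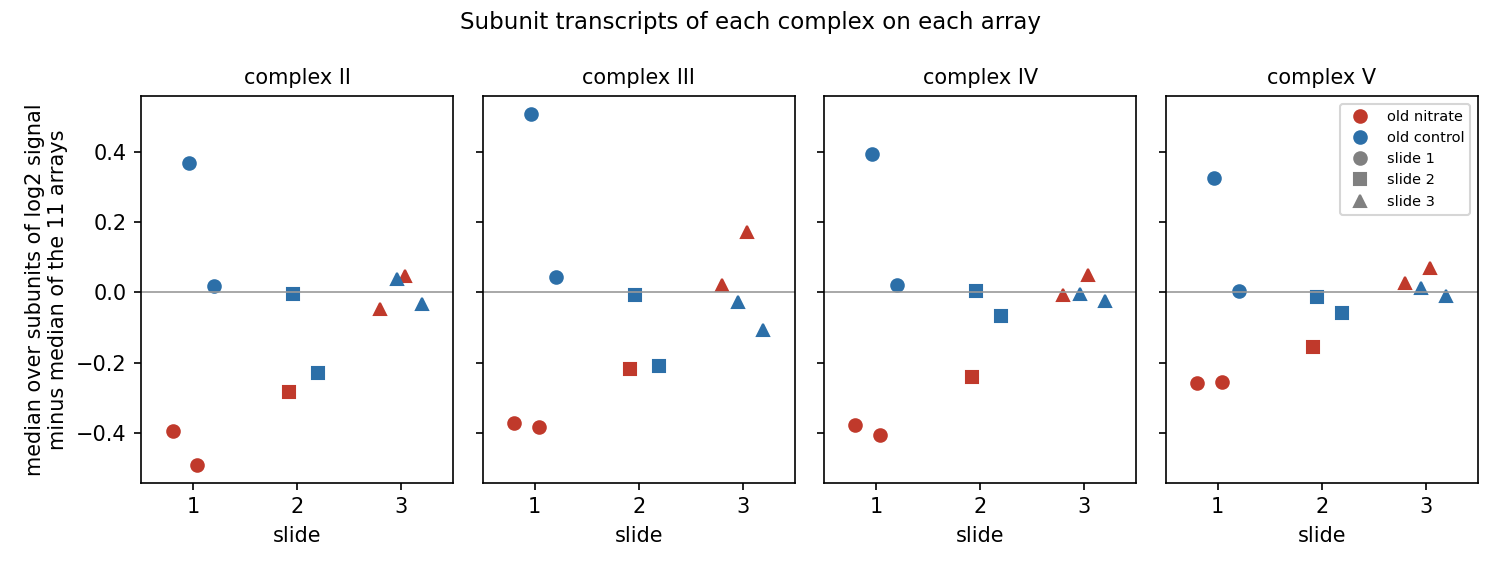
Median over the detected subunits of each complex on each array, relative to each subunit's control median, in log2 units, by slide. The axis label names the 11 arrays, but the controls were the reference. Points are single mice, and in all 4 complexes the nitrate points lie lowest on slides 1 and 2 and close to or above the controls on slide 3.

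The median difference was -0.24 in complex II, -0.21 in complex III, -0.25 in complex IV and -0.16 in complex V. Fits that each omitted 1 array gave -0.30 to -0.18 in complex II, -0.28 to -0.13 in complex III, -0.31 to -0.17 in complex IV and -0.19 to -0.07 in complex V. Leaving out control 1 moved it by more than 1.5 times in complex III, to -0.13, and in complex V, to -0.07, and leaving out nitrate treated mouse 1 did so in complex V, to -0.10. 2 of 4 genes of complex II were called lower, 1 of 9 of complex III, 3 of 16 detected genes of complex IV and 2 of 15 of complex V, against 4.85% of all detected probes. Differences between the complexes were not tested, since their members were chosen with results known. On slide 3 the medians were 0.03, 0.12, 0.08 and 0.04 in the same order, so no complex was lower there.

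In complex II, both catalytic subunits were called lower and neither membrane anchor was, a contrast that was not tested. Sdha, the flavoprotein that oxidizes succinate, had 13.21, 13.16, 13.28, 13.68 and 13.72 in nitrate treated mice, and a lowest, median and highest value of 13.33, 13.73 and 14.03 in controls. Nitrate treated mice 1, 2 and 3 lay below all controls and mice 4 and 5 within them. Sdha fell by 0.31 ± 0.14 (SE, n = 5 and 6), with an unadjusted P of 0.0472 and an adjusted P of 0.342 in limma and an exact permutation P of 0.0628. The permutation test was two-sided and exact, over all 462 divisions of the 11 mice.

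Sdhb, the iron-sulfur subunit, had 14.82, 14.77, 14.92, 15.30 and 15.41 in nitrate treated mice against 15.10, 15.35 and 15.75 in controls, with the same mice low. It fell by 0.33 ± 0.14 (SE, n = 5 and 6), with an unadjusted P of 0.035 and an adjusted P of 0.32 in limma and an exact permutation P of 0.0628. Its other probe was also called, at -0.40. Of the membrane anchors, Sdhc differed by -0.18 ± 0.10 (SE, adjusted P = 0.435 in limma) and Sdhd by -0.07 ± 0.17 (SE, adjusted P = 0.886 in limma). The Sdhd difference was -0.72 on slide 1 and 0.34 on slide 3.

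In complex III, Cyc1, the cytochrome c1 that hands electrons to cytochrome c, had the lowest difference of all 47 genes. Its values were 13.81, 13.69, 13.96, 14.25 and 14.55 in nitrate treated mice and 14.14, 14.38 and 14.96 as lowest, median and highest in controls. Mice 1, 2 and 3 again lay below every control. Cyc1 fell by 0.38 ± 0.17 (SE, n = 5 and 6), with an unadjusted P of 0.049 and an adjusted P of 0.345 in limma and an exact permutation P of 0.0866. The difference was -0.95 on slide 1 and 0.10 on slide 3.

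The Rieske iron-sulfur protein Uqcrfs1 had the difference nearest to 0 in the complex, at -0.11 ± 0.18 (SE, adjusted P = 0.820 in limma). The core proteins Uqcrc1 and Uqcrc2 differed by -0.30 and -0.19 (adjusted P = 0.360 and 0.561 in limma). The small subunits Uqcrb, Uqcrq, Uqcrh, Uqcr10 and Uqcr11 lay between -0.25 and -0.18. For Uqcrb the probes did not give the same call. The brightest of 3 probes differed by -0.21 (adjusted P = 0.462 in limma) and another by -0.57, which was called, with 11.07 in nitrate treated mouse 5 against 12.46 to 12.67 in the other nitrate treated mice.

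Complex IV is led by 3 mitochondrially encoded catalytic subunits, listed below, around which the nuclear subunits sit. Cox4i1, the common form of subunit 4, had 15.63, 15.59, 15.79, 15.99 and 15.99 in nitrate treated mice and 15.94, 16.01 and 16.22 in controls. Its difference of -0.23 ± 0.09 (SE, adjusted P = 0.306 in limma) was a fold change under 1.2. The exact permutation P was 0.0303, beside an unadjusted limma P of 0.0279. Cox4i2, the form best known from lung and oxygen-sensing cells, differed by -0.03 ± 0.09 (SE, adjusted P = 0.903 in limma). Its values in nitrate treated mice, 7.66 to 7.75, lay within those of the controls, where the median was 7.82.

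Cox6b1, a subunit at the intermembrane face where the dimer meets, had 11.83, 11.79, 11.85, 12.16 and 12.34 in nitrate treated mice against 12.07, 12.32 and 12.89 in controls. It fell by 0.35 ± 0.15 (SE, n = 5 and 6), with an unadjusted P of 0.0406 and an adjusted P of 0.331 in limma and an exact permutation P of 0.0606, and mice 1, 2 and 3 lay below all controls. Its testis form Cox6b2 had 7.78 to 8.11 in nitrate treated mice and 7.79 to 8.06 in controls, and differed by 0.06 ± 0.08 (SE, adjusted P = 0.762 in limma). The testis forms Cox7b2 and Cox8c were not detected on any of the 11 arrays.

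Among the common forms of subunits with a muscle isoform, Cox6a1 had 17.27, 17.13, 17.32, 17.52 and 17.60 in nitrate treated mice and 17.40, 17.60 and 17.93 in controls. It fell by 0.29 ± 0.11 (SE, n = 5 and 6), with an unadjusted P of 0.0256 and an adjusted P of 0.298 in limma and an exact permutation P of 0.0411. Cox7a2 had 13.05, 12.98, 13.20, 13.29 and 13.51 against 13.43, 13.45 and 13.91, so that 4 nitrate treated mice lay below all controls. Cox7a2 fell by 0.32 ± 0.12 (SE, n = 5 and 6), with an unadjusted P of 0.0173 and an adjusted P of 0.275 in limma and an exact permutation P of 0.0238. Cox8a differed by -0.25 ± 0.10 (SE, adjusted P = 0.303 in limma), with a fold change under 1.2.

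Cox7a2l, which is related to subunit 7a, differed by -0.07 ± 0.06 (SE, adjusted P = 0.617 in limma). Cox7b differed by -0.24 ± 0.12 (SE, adjusted P = 0.393 in limma), Cox5a, the partner of subunit 4 on the matrix side, by -0.33, Cox5b by -0.16 and Cox6c by -0.20. For Cox7c the brightest probe gave -0.27 (adjusted P = 0.406 in limma), while a dim probe with signals of 4.40 to 5.21 gave 0.01.

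The muscle forms had a wider spread than the common forms, and none was called. Cox6a2, the heart and skeletal muscle form of subunit 6a, had 7.16, 7.04, 5.75, 12.33 and 9.65 in nitrate treated mice. In controls it had a lowest value of 5.33, a median of 6.49 and a highest of 11.93, which was control 1. The signal was high in 1 or 2 mice of each group and low in the rest. The difference was 1.08 ± 1.33 (SE, exact permutation P = 0.487), and it ran from 0.09 without nitrate treated mouse 4 to 2.005 without control 1. It was -2.08 on slide 1, -1.05 on slide 2 and 5.04 on slide 3.

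Cox6a2 ran with the heart muscle markers from array to array. The mean of the 11 detected markers was 7.95, 7.99, 7.43, 11.32 and 9.10 in nitrate treated mice and 10.83, 7.51, 7.11, 7.11, 7.75 and 8.12 in controls 1 to 6. Of these markers Myh6, the atrial and adult mouse cardiac myosin, had 14.64 in nitrate treated mouse 4 and 14.05 in control 1, and between 7.14 and 12.32 in the others. Myl3, a ventricular light chain, had 10.50 in nitrate treated mouse 5, 9.00 in mouse 4 and 8.86 in control 1, and between 5.74 and 7.23 in the others. Myh7 and Myl2, also made in ventricular muscle, did not pass the detection rule, which asks for 5 arrays of a group and so can miss a transcript present on fewer. The mean of the 9 detected skeletal muscle markers was highest on the same arrays. It was 8.27 in nitrate treated mouse 4, 8.24 in control 1 and 7.57 in mouse 5, and at most 7.22 in the others. With the heart muscle mean as a covariate, the Cox6a2 difference was -0.09.

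Cox7a1 and Cox8b, the muscle forms of subunits 7a and 8 that brown fat also makes, were measured at high signal on every array. Cox7a1 had 14.77, 14.25, 14.83, 15.39 and 15.55 in nitrate treated mice and a lowest, median and highest value of 14.77, 15.12 and 16.002 in controls, a difference of -0.26 ± 0.25 (SE, adjusted P = 0.655 in limma). It became -0.09 without nitrate treated mouse 2, -0.11 without control 1 and -0.41 without nitrate treated mouse 5. Cox8b ran from 14.85 in nitrate treated mouse 2 over 15.21 in mouse 3 and 15.66 in mouse 4 to 15.85 in mouse 5, with mouse 1 between mice 2 and 3. In controls it had 15.33, 15.60 and 16.30, and the difference was -0.35 ± 0.20 (SE, adjusted P = 0.460 in limma). Control 1 was highest for both. The mean of 14 brown adipocyte markers was 11.08, 10.72, 11.03, 11.50 and 11.65 in nitrate treated mice, 11.86 in control 1 and 11.12 to 11.28 in the other controls.

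The balance of the isoforms was compared within each array, as the log2 signal of the muscle form minus that of the common form. Only its change between groups can be read, since signals of different probes have no common scale. The change was 1.36 for subunit 6a, 0.05 for subunit 7a and -0.10 for subunit 8. Two-sided exact permutation tests gave P = 0.366, 0.814 and 0.481, and 0.721, 0.814 and 0.721 after Benjamini-Hochberg adjustment over the 3 pairs. With each array left out in turn the changes lay between 0.42 and 2.24, -0.03 and 0.18, and -0.19 and -0.03. The lowest value for subunit 6a was that without nitrate treated mouse 4 and the highest that without control 1. All 3 changes were negative on slides 1 and 2 and positive on slide 3, at 5.18, 0.59 and 0.31.

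**Figure D3:**
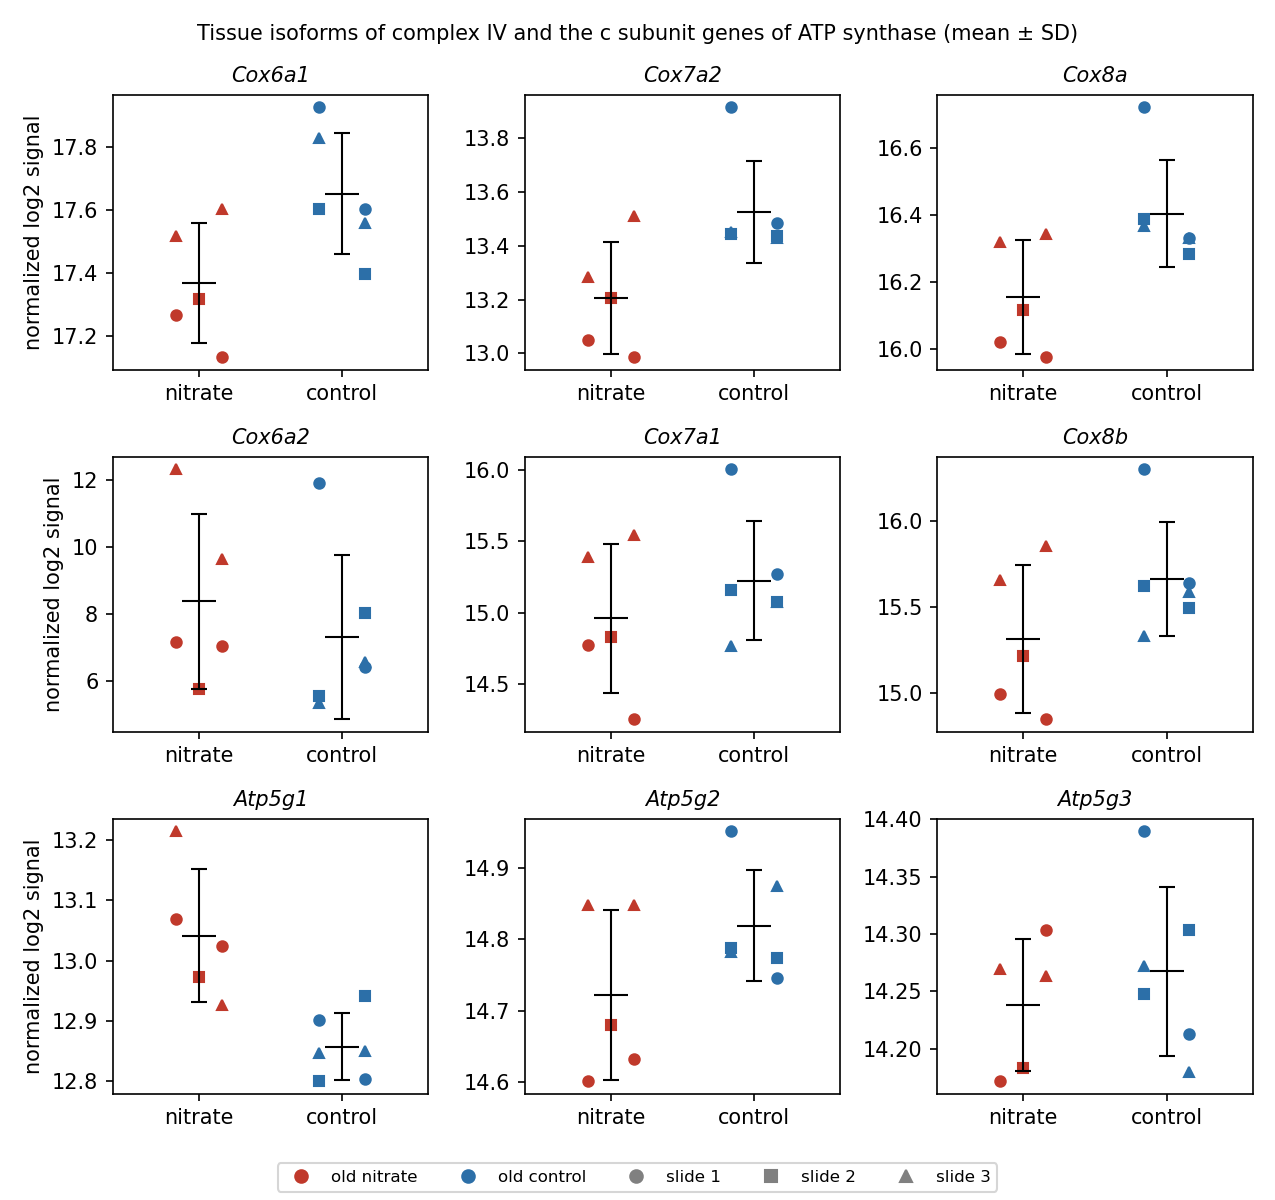
Normalized log2 signal of the common forms (top) and muscle forms (middle) of complex IV subunits 6a, 7a and 8, and of the ATP synthase c subunit genes (bottom), with mean and SD and a separate axis for each gene. Points are single mice marked by slide, and Atp5g1 is the panel in which 4 of 5 nitrate treated mice lie above all controls.

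In complex V, Atp5d and Atp5o had the smallest P values of all 44 subunits. Atp5o, which codes for the oligomycin sensitivity protein at the top of the stator stalk, had 12.76, 12.55, 12.77, 12.99 and 12.97 in nitrate treated mice. In controls the lowest value was 13.01, the median 13.09 and the highest 13.56. It was the only 1 of the 44 detected subunits in which all nitrate treated mice lay below all controls, against 1.14% of all detected probes. Atp5o fell by 0.35 ± 0.11 (SE, n = 5 and 6), with an unadjusted P of 0.00831 and an adjusted P of 0.227 in limma and an exact permutation P of 0.00216, which is the smallest that this test can give.

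Atp5d, the delta subunit of the rotating central stalk, had 13.36, 13.27, 13.47, 13.61 and 13.70 in nitrate treated mice and 13.66, 13.76 and 14.19 in controls. 4 of the 5 nitrate treated mice lay below every control. It fell by 0.34 ± 0.11 (SE, n = 5 and 6), with an unadjusted P of 0.0082 and an adjusted P of 0.226 in limma and an exact permutation P of 0.00649. The Atp5o and Atp5d differences were negative on all 3 slides, at -0.68, -0.32 and -0.07 for Atp5o and -0.68, -0.24 and -0.10 for Atp5d.

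In the catalytic head no gene was called. Atp5a1, the alpha subunit, differed by -0.18, Atp5b, the catalytic beta subunit, by -0.25, and Atp5c1, the gamma subunit of the shaft, by -0.16, with adjusted P values of 0.481, 0.391 and 0.444 in limma. The remaining stalk and membrane subunits Atp5e, Atp5f1, Atp5h, Atp5j, Atp5j2, Atp5k and Atp5l lay between -0.20 and -0.02, and none was called.

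Atp5g1 went the other way. It had 13.07, 13.02, 12.97, 13.21 and 12.93 in nitrate treated mice, and 12.80, 12.85 and 12.94 as the lowest, median and highest control values. Only nitrate treated mouse 5 fell within the controls. The difference was 0.18 ± 0.07 (SE, n = 5 and 6), with an unadjusted P of 0.0156 and an adjusted P of 0.270 in limma and an exact permutation P of 0.00649. Its fold change was under 1.2, so it was not called. It was the only one of the 47 genes with a higher value at an unadjusted P value under 0.05, and it was higher on all 3 slides, by 0.19, 0.10 and 0.22.

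Neither of the other c subunit genes was called. Atp5g2 had 14.60, 14.63, 14.68, 14.85 and 14.85 in nitrate treated mice against 14.75, 14.79 and 14.95 in controls, a difference of -0.10 ± 0.07 (SE, adjusted P = 0.550 in limma). Atp5g3 had 14.17, 14.30, 14.18, 14.27 and 14.26 against 14.18, 14.26 and 14.39, a difference of -0.03 ± 0.06 (SE, adjusted P = 0.866 in limma). A test of the difference between these genes was not run.

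Of the names that are no subunits, Atp5s was dim. It had 5.70, 5.95, 5.84, 5.91 and 6.32 in nitrate treated mice and 6.09, 6.26 and 6.55 in controls. It fell by 0.33 ± 0.11 (SE, n = 5 and 6), with an unadjusted P of 0.0116 and an adjusted P of 0.247 in limma and an exact permutation P of 0.026, but was no longer called after normexp background correction. Atp5sl differed by -0.07 and Cox4nb by 0.05.

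Other genes of the pathway were read from lists chosen by hand. Complex I passes electrons from NADH to ubiquinone. The list holds the 37 gene names that begin with Nduf, then a, b, c, s or v and a digit, and so includes Ndufa4, now counted to complex IV, and its paralog Ndufa4l2. All were detected, 37 lay below 0 with a median of -0.22, against 46.2% of all detected probes below 0. 9 were called lower and 0 higher, against 4.85 and 4.16% of all detected probes, the shares beside which the counts for the further lists are also to be read. Ndufa10 fell by 0.47 ± 0.13 (SE, adjusted P = 0.195 in limma). Ndufb8, Ndufs1 and Ndufa12 were also called, between -0.38 and -0.30, as was Ndufb9 at -0.27.

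Of 12 mitochondrially encoded transcripts 2 were called lower and 0 higher, with a median of -0.15. The called transcripts were the complex I subunits ND1, at -0.35 ± 0.11 (SE, adjusted P = 0.227 in limma), and ND3, at -0.26 ± 0.08 (SE, adjusted P = 0.215 in limma). For the catalytic core of complex IV the differences were 0.01 ± 0.06 for COX1, 0.00 ± 0.06 for COX2 and 0.00 ± 0.06 for COX3 (SE), and none was called. Their signals lay near the top of the scale, at 17.867 to 18.015, 17.32 to 17.56 and 16.78 to 16.95. Quantile normalization gives the brightest probes nearly the same values on every array, so COX1 in particular had little room to differ. A difference near 0 at this level cannot be read as no change. CYTB of complex III differed by -0.05 ± 0.06.

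Among electron carriers and coenzyme Q enzymes 13 of 16 were detected and 3 called lower, with Etfb of the electron transfer flavoprotein at -0.32 and the coenzyme Q enzyme Coq5 at -0.32. Cytochrome c, Cycs, differed by -0.27 ± 0.19 (SE, adjusted P = 0.521 in limma). Of 21 detected assembly factors none was called, with a median of -0.13. None of 9 detected genes for the ATP synthase inhibitor and for nucleotide and phosphate transport was called. Among these Atpif1, the inhibitor that binds the ATP synthase when the proton gradient collapses, had 13.32 to 13.48 in nitrate treated mice and 13.07 to 13.37 in controls. Its difference was 0.19 ± 0.07 (SE, adjusted P = 0.252 in limma), with a fold change under 1.2.

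Among regulators of mitochondrial genes 2 of 14 detected were called, both lower, against 4.85% of all detected probes, with a median of -0.08. Ppara, the fatty acid receptor, fell by 0.45 ± 0.13 (SE, adjusted P = 0.193 in limma), and Ppargc1b, a coactivator of mitochondrial biogenesis, fell by 0.26 ± 0.12 (SE, adjusted P = 0.334 in limma). The coactivator Ppargc1a had values from 8.61 to 10.58 in nitrate treated mice and from 8.99 to 10.23 in controls, and differed by -0.15 ± 0.36 (SE, adjusted P = 0.887 in limma). Nrf1, Gabpa, Esrra and the mitochondrial transcription factor Tfam differed by 0.12, 0.07, -0.07 and -0.06, and none was called.

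Markers of fat were also lower in nitrate treated mice. 10 of 15 adipocyte markers were called lower and 0 higher, all 15 lay below 0, and their median difference was -0.36. Their mean signal was 12.95, 13.19, 13.25, 13.45 and 13.27 in nitrate treated mice 1 to 5, and 13.99, 13.55, 13.91, 13.57, 13.49 and 13.34 in controls 1 to 6. The markers and the subunits did not run together on every array. Nitrate treated mouse 5 lay below all controls in the adipocyte mean but was second highest in the subunit median, and control 3 was second highest in the adipocyte mean with a subunit median of 0.00. The median marker difference was -0.61 on slide 1, -0.20 on slide 2 and -0.30 on slide 3, where that of the 47 genes was 0.09. With this mean as a covariate in the limma fit, none of the 47 genes was called in either direction, 11 lay below 0 and their median difference was 0.04, while the share of all probes called lower was 3.35%. The adipocyte mean itself differs between the groups, so this fit cannot tell treatment and fat content apart. Atp5g1 then differed by 0.21, with an unadjusted limma P of 0.0499 and no exact test.

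Of 14 detected brown adipocyte markers, 3 were called lower, Cidea, Kcnk3 and Ebf2, and 1 higher, Prdm16. Their median difference was -0.12, and Ucp1, the uncoupling protein of brown fat, differed by 0.23 ± 0.38 (SE, adjusted P = 0.828 in limma). Under adjustment for their mean, 8 of the 47 genes were called lower, against 4.44% of all detected probes.

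Of 11 detected heart muscle markers 1 was called higher, Ryr2, and the median difference was 0.58. It was -1.16 on slide 1, -0.04 on slide 2 and 2.93 on slide 3, and so had the sign of the 47 genes on each slide, as did the brown adipocyte median at -0.81, -0.12 and 0.38 and that of complex I at -0.59, -0.19 and 0.05. The smooth muscle median had the opposite sign on each slide, at 0.44, 0.08 and -0.04. Under adjustment for the heart muscle mean, 23 of the 47 genes were called lower, against 6.90% of all probes. Without nitrate treated mice 4 and 5 and control 1, the arrays with the highest heart muscle mean, 26 were called lower, against 6.73%, with a median difference of -0.29. Of 9 detected skeletal muscle markers 1 was called higher, and of 10 smooth muscle markers 1, Lmod1, with medians of 0.29 and 0.15. Of 10 endothelial markers 1 was called lower, Robo4, and of 8 macrophage markers none, with medians of -0.10 and 0.10. The part of heart muscle in the subunit differences was not tested beyond these values.

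**Figure D4:**
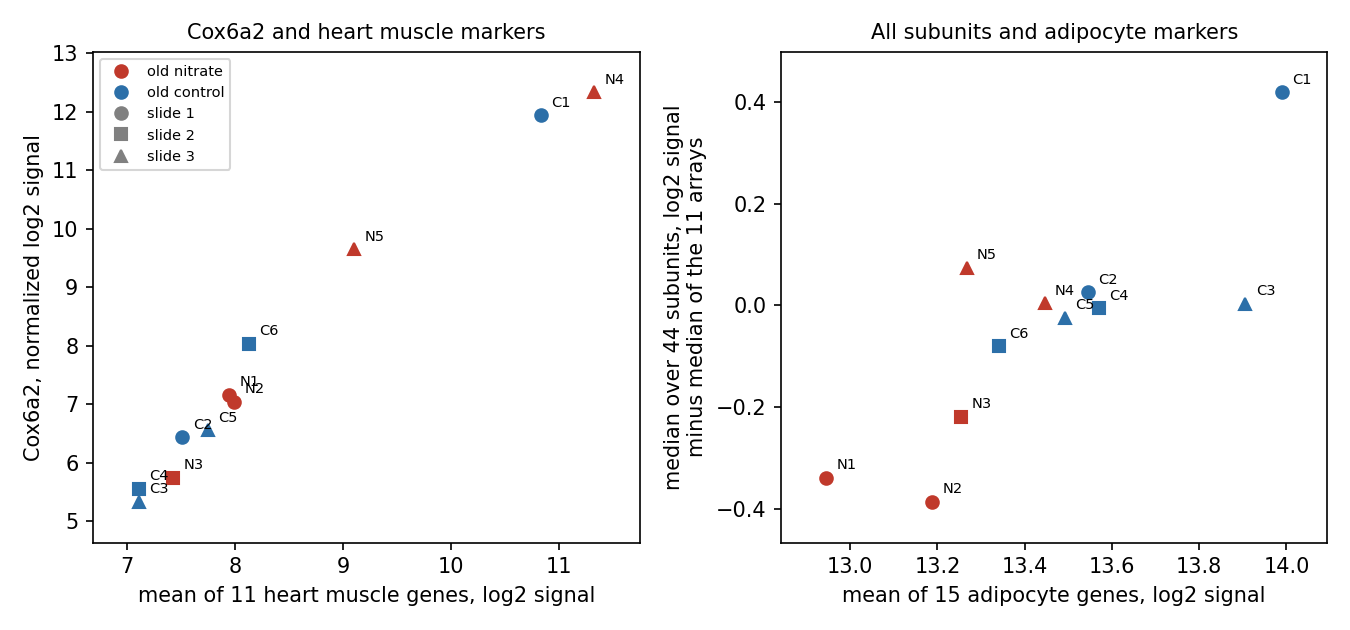
Left, normalized log2 signal of Cox6a2 against the mean of 11 heart muscle markers. Right, median over the 44 subunits, relative to each subunit's control median, against the mean of 15 adipocyte markers. The axis label names the 11 arrays, but the controls were the reference. Points are single mice (N nitrate, C control), and nitrate treated mouse 4, control 1 and nitrate treated mouse 5 are highest on the left, while control 1 is highest and nitrate treated mice 1 and 2 lowest on the right.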

How the data were processed

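The authors deposited spot intensity for each array, written by Feature Extraction 10.7.1.1 with local background subtracted, and a table of log2 values, quantile normalized in GeneSpring and centred on the median of the arrays. All columns were matched to samples. Intensities below 1 were set to 1 and log2 transformed. Outlier-flagged spots were dropped, replicate spots averaged, and the 11 arrays quantile normalized. Detection required a probe to be found and well above background on 5 or more arrays of a group. Detected probes were tested with lmFit and eBayes (limma 3.58.1, R 4.3.3), with Benjamini-Hochberg adjustment over all of them. The thresholds for calls follow the methods of the paper. Each gene was read from its brightest detected probe. Exact permutation tests used all 462 divisions of the mice (Python 3.11.15).

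The members and gene lists were chosen with earlier results of these data known. Genes named are the called members, the tissue isoforms, complex II, the extremes of each complex, members whose probes disagree, the 10 called genes of other pathway lists with the smallest P values and 6 regulators. Some further members and marker genes were named after their values were seen. Precision is limited by the number of arrays, and P values measure the spread between single mice. The fit was tested on simulated data. Alternatives covered normalization, background, detection, flagged spots, slide and replicate blocks, marker means as covariates and each array left out. Those with the brown adipocyte mean and without 3 arrays were chosen after seeing the data.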

Additional observations from a re-analysis of the deposited data

Results flagged for a closer look

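In the 6 controls, control 1 stood apart from the others by more than Dixon's limit in 14 of 34 values, always on the high side, and in the 5 nitrate treated mice no value did. Chance alone flags about 1 in 20 such groups, or 1.7 of 34. The gap to the next control, as a share of the range of the controls, was 0.636 for Cyc1, 0.769 for Uqcrb, 0.644 for Cox6b1, 0.885 for Cox7a2, 0.785 for Cox7b, 0.806 for Cox7c, 0.762 for Cox8a, 0.683 for Cox8b, 0.710 for Atp5d and 0.819 for Atp5o. For the medians it was 0.648 for complex III, 0.809 for complex IV, 0.814 for complex V and 0.789 for all subunits. These values are not independent, since they come from the same array. Without control 1, 3 of the 47 genes were called lower and their median difference was -0.11.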

How the results depend on the processing

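The direction of the subunit differences depended on the slide and on the adipocyte mean. The cause was not tested. With the adipocyte mean as a covariate the median difference was 0.041 over all members, 0.040 for complex II, 0.071 for complex III, 0.029 for complex IV and 0.060 for complex V, and 0 genes were called lower. In that fit the differences were 0.060 for Sdha, 0.020 for Sdhb, 0.35 for Sdhd, 0.0099 for Cyc1, 0.39 for Uqcrfs1, 0.056 for Uqcrb, 0.015 for Cox6a1, 0.027 for Cox6b1, 0.12 for Cox7a1, 0.0074 for Cox7b, 0.037 for Cox7c, 0.031 for Cox8b, 0.015 for Atp5g2 and 0.041 for Atp5g3. 11 of 47 stayed below 0, among them Atp5s (-0.29), Atp5o (-0.12), Atp5d (-0.094) and Cox7a2 (-0.085), which lost their call but kept their direction. Within slide 1 the medians were -0.58 over all members, -0.69 for complex II, -0.67 for complex III, -0.59 for complex IV and -0.46 for complex V. Within slide 3 they were 0.086, 0.029, 0.12, 0.076 and 0.041, and Cyc1 differed by 0.099. Under adjustment for the heart muscle mean 23 genes were called lower and Cox6a2 differed by -0.086. Without the 3 arrays with the highest heart muscle mean, 26 were called lower. With no limit on the fold change 1 gene, Atp5g1, was called higher and 11 lower. After normexp background correction Atp5g3 differed by 0.0069.

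With each array left out in turn, between 3 and 20 genes were called lower and the median difference lay between -0.27 and -0.11. The isoform change for subunit 7a then lay between -0.035 and 0.18, the Sdhd difference between -0.17 and 0.035, and the Cox4i2 difference between -0.086 and 0.0034.

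Replicate numbers are shared between the groups but are not stated to pair mice. The deviations of same-numbered arrays correlated by 0.010, 0.12, -0.14, -0.13 and 0.18. With the replicate block 11 genes were called lower and the median difference was -0.23. Under the replicate block and the slide block Cyc1 lost its call at differences of -0.43 and -0.40, with unadjusted limma P values of 0.0612 and 0.0507 (no exact test). In the other fits the count stayed between 6 and 11. Atp5g1 lay between 0.14 and 0.21 in 27 other fits, with its unadjusted limma P value at most 0.0499 (no exact test was run there).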
